A study of Mus musculus with 39 samples.

Results

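The killer cell effector genes described here are 9 mouse genes, Gzma, Gzmb, Gzmc, Gzmk, Prf1, Fasl, Nkg7, Ccl1 and Slamf7, chosen by symbol from a list of killing genes. They are 9 of the 39179 genes in the count table, and all 9 passed the filter on low counts that left 15070 genes for testing. The choice was made with earlier results of these data known. Counts of members set beside the share of all genes are therefore a description only. RNA came from 39 whole tumours of a Braf-mutated melanoma in C57BL/6 mice, in which treatment began 7 days after the tumour cells were injected. Combination tumours received EPAT and anti-PD-1 together (5 libraries after 2 days and 5 after 5 days), EPAT tumours received the receptor antagonists alone (5 and 5), anti-PD-1 tumours the antibody alone (4 and 5) and vehicle tumours the DMSO, PEG400 and water carrier (5 and 5). EPAT blocks EP2 and EP4, receptors for prostaglandin E2, and was dosed at 30 mpk (200 µl of 3 mg/mL), while anti-PD-1 is an antibody dosed at 200 µg. Its target PD-1 is an inhibitory receptor of T cells. The extraction protocol speaks of tumours taken on day 4, which matches neither time point, so the groups follow the time given for each tumour. The labels do not say that the tumours of a group came from separate mice, so the p-values refer to the spread among the tumours sampled. The sample titles carry a number that goes with 1 treatment and time, except in 3 libraries (anti-PD-1 day 5 replicate 5, EPAT day 5 replicate 1 and EPAT day 2 replicate 5), which carry the number of the other time under the same treatment. They are kept where the treatment and time labels put them. For the comparisons that rest on these groups, the median of the 9 genes is also given without them, an alternative chosen after seeing the data. EPAT day 5 replicate 1 had the highest Gzmb, Gzmk, Fasl, Nkg7, Ccl1 and Slamf7 of the EPAT tumours of that day.

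Cytotoxic T cells and natural killer (NK) cells kill by releasing granules onto a target. Perforin opens pores in the target membrane and granzymes, a family of serine proteases, enter and cleave proteins that bring on cell death. A second route works through death ligands on the killer cell surface. Prostaglandin E2 raises cyclic AMP in lymphocytes through EP2 and EP4, and this is known to dampen their killing functions, while PD-1 restrains T cells that have met their antigen.

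By role, Prf1 encodes perforin, and Gzma, Gzmb, Gzmc and Gzmk encode granzymes. Nkg7 encodes a granule membrane protein needed for granule release in mice, and Fasl the ligand of the death receptor Fas. Ccl1 encodes a chemokine that binds the receptor CCR8. Slamf7 encodes a surface receptor of the SLAM family carried by NK cells, activated T cells and other leukocytes. In the GENCODE annotation of GRCm38, Gzma (chr13:113093825-113100981) and Gzmk (chr13:113171608-113225908) lie on chromosome 13, both on the minus strand. Gzmb (chr14:56258838-56262260) and Gzmc (chr14:56231441-56234656) lie on the minus strand of chromosome 14. Prf1 (chr10:61297833-61304680) and Nkg7 (chr7:43437073-43438249) are on plus strands. Fasl (chr1:161780689-161788495), Slamf7 (chr1:171632403-171653035) and Ccl1 (chr11:82176657-82305690) are on minus strands. Gzmk overlaps Esm1 on the other strand, and Slamf7 overlaps Gm37787 on the other strand and Mir7683 on its own, so reads there may belong to either gene. None of the 50-base words in the last 300 bases of the members' transcripts occurred in a transcript of another gene.

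The promoters of the 2 pairs of genes that varied most alike in the tumours, Gzma with Gzmc and Nkg7 with Gzmk, are printed from RefSeq on GRCm38.p6, as 300 bases around the RefSeq start, most of them upstream of it, and 5′ to 3′ on the gene's strand. They span chr13:113100932-113101231 (Gzma), chr14:56234608-56234907 (Gzmc), chr7:43436888-43437187 (Nkg7) and chr13:113180916-113181215 (Gzmk), and only Nkg7 is on the plus strand. Capitals mark matches on either strand to ACCACA (a Runx site), TCACAC (a T-box half-site), TGANTCA (an AP-1 site) and TGACGTCA (the cyclic AMP response element), and no matches overlap in these 4.
Gzma: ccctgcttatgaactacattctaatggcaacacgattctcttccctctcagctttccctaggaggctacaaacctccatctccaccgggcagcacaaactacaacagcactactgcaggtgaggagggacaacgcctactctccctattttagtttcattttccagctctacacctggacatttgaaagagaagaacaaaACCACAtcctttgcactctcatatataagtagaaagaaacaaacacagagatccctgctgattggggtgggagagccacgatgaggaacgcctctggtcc
Gzmc: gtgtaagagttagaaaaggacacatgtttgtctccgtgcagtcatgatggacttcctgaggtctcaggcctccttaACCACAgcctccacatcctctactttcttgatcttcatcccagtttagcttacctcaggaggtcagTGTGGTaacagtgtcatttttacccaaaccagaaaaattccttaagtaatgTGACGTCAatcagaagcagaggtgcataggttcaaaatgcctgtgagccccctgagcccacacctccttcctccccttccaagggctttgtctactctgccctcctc
Nkg7: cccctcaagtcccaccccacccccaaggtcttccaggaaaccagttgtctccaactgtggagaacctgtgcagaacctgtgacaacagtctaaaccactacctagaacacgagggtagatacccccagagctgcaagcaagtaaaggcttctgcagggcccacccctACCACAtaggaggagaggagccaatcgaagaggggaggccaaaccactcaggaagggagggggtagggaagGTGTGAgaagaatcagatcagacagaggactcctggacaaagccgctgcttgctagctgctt
Gzmk: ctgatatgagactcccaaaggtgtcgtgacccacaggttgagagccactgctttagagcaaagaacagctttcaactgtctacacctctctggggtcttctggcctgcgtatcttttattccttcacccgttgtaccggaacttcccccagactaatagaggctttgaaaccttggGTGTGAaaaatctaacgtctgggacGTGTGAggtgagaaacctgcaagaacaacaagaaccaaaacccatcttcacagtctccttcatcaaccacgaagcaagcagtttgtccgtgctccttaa
The cyclic AMP response element was found in 1 of the 9 member promoters, that of Gzmc at position -57 from the start, and in 1.79% of 32851 promoters of this length. The Runx site was found in 5 of 9 (Gzma, Gzmb, Gzmc, Prf1 and Nkg7), against 16.8% of all promoters, and the T-box half-site in 4 of 9 (Gzmb, Gzmk, Nkg7 and Slamf7), against 14.5%. The AP-1 site was found in 2 of 9 (Gzmb and Slamf7), against 7.81%. These matches describe letters only and show no binding.

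Library totals ranged from 8385741 to 15558113 counts with a median of 12193825, and no pair of libraries in a group agreed within counting noise. Levels are given as CPM (each count relative to its TMM-scaled library size), from 3′ tags that carry no length term. Lung transcripts (Sftpc, Sftpa1 and Scgb1a1 summed) came to 577 counts or more in 23 libraries and to at most 13 in the other 16. Vehicle day 2 replicate 1 carried B cell and adipocyte genes, and vehicle day 2 replicate 2 and combination day 5 replicate 3 carried keratinocyte genes. Combination day 2 replicate 2 stood apart in lymphocyte genes, with a T cell score (mean log2 CPM of 16 measured T cell genes) of 0.22 against 3.00 to 4.23 in the other 4 combination tumours of that day, and an NK cell score of 1.80 against 3.53 to 4.07. T cell and NK cell markers such as Cd3d (13 to 1338 counts) and Ncr1 (4 to 141 counts) were found in every library. Trac, on the same T cell list, was at 0 in 20 libraries and fell below the filter on low counts. Of the melanocyte markers Mitf had 259 to 1065 counts, while Tyrp1 was at 0 in all 39 libraries and Tyr in 38, so the labelled tumour type rests on the labels. In bulk RNA, fewer cells of a type and less RNA per cell cannot be told apart.

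Ranked by group mean, vehicle day 2 was the lowest of the 8 groups for 8 of the 9 genes, and for Gzmc EPAT day 5 was the lowest. Combination day 5 was the highest for Prf1, Nkg7, Ccl1 and Slamf7, combination day 2 for Gzma and Gzmb, and anti-PD-1 day 5 for Gzmc, Gzmk and Fasl. The highest group mean was 2.71 times the lowest for Gzmc and 10.9 times for Gzmk, and 3.40 to 4.73 times for the other 7 genes. Neighbouring groups in these orders differed by less than the larger of their SDs in 7 of 7 steps for 8 genes. For Slamf7 it was 6 of 7, and the step beyond was that between combination day 5 and combination day 2. Within groups, the median coefficient of variation was 32.9% for Slamf7, 35.9% for Prf1 and 36.02% for Nkg7, against 58.8% for Gzma and 77.5% for Gzmk.

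**Figure D1:**
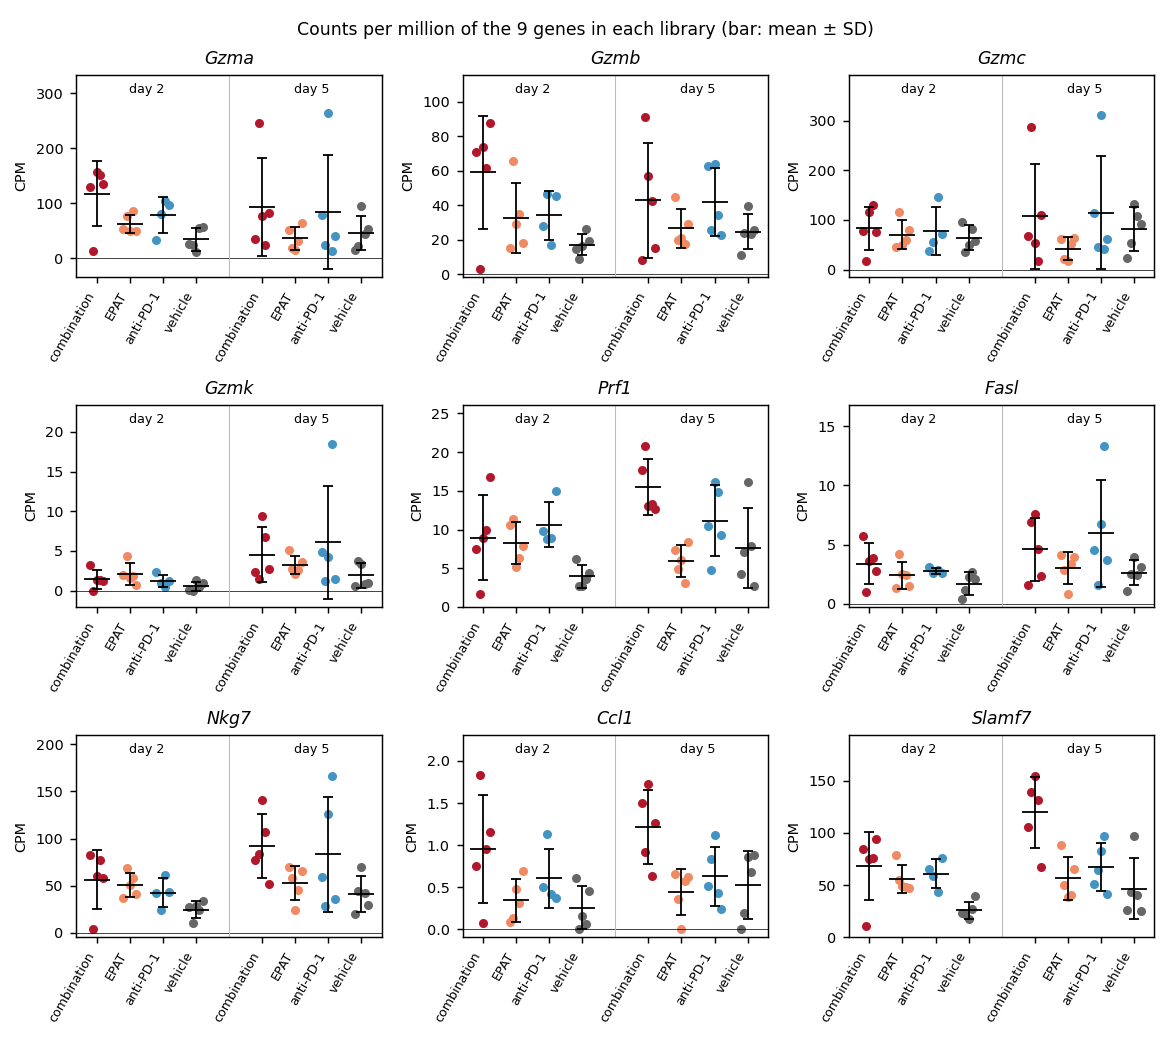
CPM (y axis, linear, TMM-scaled) of each gene in every library, as points by treatment and day on the x axis, with the group mean and SD as black bars. Combination day 2 replicate 2 is the lowest point of its group in 8 of the 9 panels, with Ccl1 the exception, and Slamf7 stands highest on day 5 in the combination.

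After 2 days all 9 genes had a fitted fold change above 0 over vehicle in combination, EPAT and anti-PD-1 tumours alike, and none passed the test over all genes. The median log2 fold change of the 9 genes was 1.31 for the combination, 0.92 for EPAT and 1.07 for anti-PD-1, against a median over all genes of -0.02, -0.02 and -0.01. The 3 comparisons share the same 5 vehicle libraries, so they are not independent of each other. edgeR's quasi-likelihood test with Benjamini-Hochberg adjustment called 0 of the 9 genes in each, and 0 of all 15070 genes (0%). At an unadjusted p under 0.05 stood 6 of the 9 genes for the combination (Prf1, Gzmb, Gzma, Nkg7, Ccl1 and Slamf7), where 10.2% of all genes did. For EPAT it was 4 (Prf1, Gzmk, Nkg7 and Slamf7) against 6.23%, and for anti-PD-1 2 (Prf1 and Slamf7) against 7.12%. DESeq2 called Slamf7 for the combination (adjusted p = 0.0332), among 85 genes it called in all. There limma-voom with quality weights called Slamf7 (0.00899), Gzma (0.0380) and Gzmb (0.0395), among 567 genes in all. Neither called a member for EPAT or anti-PD-1 alone, and limma-trend on the deposited values called none in any comparison. Several of the 9 genes vary together across tumours, so the count of genes is not a count of independent results. The genes were also chosen with earlier results of these data known, so their share against that of all genes is no test.

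Prf1, the pore gene, was among the members with the smallest p on day 2 for each treatment. Prf1 had 7.49, 1.65, 8.95, 9.89 and 16.8 CPM in combination tumours and 10.6, 11.4, 5.1, 6.31 and 7.83 CPM in EPAT tumours. The Prf1 values were 9.84, 8.81, 8.91 and 15 CPM in anti-PD-1 tumours and 6.25, 2.75, 2.73, 3.56 and 4.42 CPM in vehicle tumours. All 4 anti-PD-1 tumours lay above every vehicle tumour, as did 4 of the 5 EPAT and 4 of the 5 combination tumours. Prf1 gave a log2 fold change over vehicle of 1.18 ± 0.42 for the combination, 1.06 ± 0.42 for EPAT and 1.43 ± 0.44 for anti-PD-1, with edgeR adjusted p of 0.27, 0.744 and 0.524. Combination replicate 2, at 1.65 CPM, had the lowest Prf1 level of all 39 libraries.

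Gzmb, a granzyme that cleaves after aspartate and activates caspases in its targets, had its highest group mean in the combination on day 2. Gzmb had 70.7, 3.12, 73.8, 61.5 and 87.6 CPM in combination tumours and 15.6, 65.8, 29, 35 and 18.1 CPM in EPAT tumours. The Gzmb values were 27.9, 46.5, 17 and 45.6 CPM in anti-PD-1 tumours and 14.6, 9.24, 16.6, 26.2 and 19.6 CPM in vehicle tumours. The other 4 combination tumours stood above every vehicle tumour while replicate 2 stood below all of them, and EPAT and anti-PD-1 tumours overlapped vehicle. Gzmb gave a log2 fold change over vehicle of 1.78 ± 0.55 for the combination, 0.92 ± 0.55 for EPAT and 0.98 ± 0.57 for anti-PD-1, with edgeR adjusted p of 0.222, 0.828 and 0.747. The 95% interval for the combination was 0.65 to 2.90.

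Gzma is a granzyme with trypsin-like specificity. Gzma had 130, 13.7, 157, 152 and 136 CPM in combination tumours and 53.3, 76.4, 49, 85.2 and 48.9 CPM in EPAT tumours. The Gzma values were 32.6, 81.5, 105 and 97.6 CPM in anti-PD-1 tumours and 25.1, 24.6, 10.8, 55.2 and 57.4 CPM in vehicle tumours. Apart from replicate 2 the combination tumours held at least 129.96 CPM and lay above every tumour of the other groups of that day. Gzma gave a log2 fold change over vehicle of 1.77 ± 0.67 for the combination, 0.85 ± 0.66 for EPAT and 1.19 ± 0.69 for anti-PD-1, with edgeR adjusted p of 0.32, 0.905 and 0.747. Gzmc, a granzyme of the mouse chromosome 14 cluster that holds Gzmb, overlapped more between the groups. Gzmc had 78.3, 18.1, 115, 129.5 and 76 CPM in combination tumours and 45.4, 117, 49.5, 59.9 and 78.7 CPM in EPAT tumours. The Gzmc values were 36.9, 55.9, 147 and 70.9 CPM in anti-PD-1 tumours and 96, 34.7, 49.3, 82.6 and 58.1 CPM in vehicle tumours. The 4 groups overlapped throughout for Gzmc, and the vehicle group reached 96.01 CPM. Gzmc gave a log2 fold change over vehicle of 0.38 ± 0.59 for the combination, 0.13 ± 0.59 for EPAT and 0.27 ± 0.62 for anti-PD-1, with edgeR adjusted p of 0.877, 0.994 and 0.944. The direction of Gzmc under the single treatments was not stable, since leaving out anti-PD-1 day 2 replicate 3 gave -0.23 and leaving out EPAT day 2 replicate 2 gave -0.14.

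Gzmk, a trypsin-like granzyme typical of memory-like T cells, was counted sparsely on day 2. Gzmk had 3.25, 0, 1.37, 1.34 and 1.16 CPM in combination tumours and 1.98, 4.41, 1.59, 1.85 and 0.696 CPM in EPAT tumours. The Gzmk values were 2.33, 0.922, 0.416 and 1.17 CPM in anti-PD-1 tumours and 0.075, 0, 1.37, 0.453 and 0.902 CPM in vehicle tumours. Vehicle replicate 2 and combination replicate 2 were at 0, and all groups overlapped. Gzmk gave a log2 fold change over vehicle of 1.31 ± 0.81 for the combination, 1.87 ± 0.80 for EPAT and 1.07 ± 0.86 for anti-PD-1, with edgeR adjusted p of 0.613, 0.76 and 0.818. The EPAT value had a 95% interval of 0.25 to 3.50. Without vehicle replicate 3 the Gzmk values were 1.92 for the combination, 2.49 for EPAT and 1.69 for anti-PD-1. These were the highest with 1 library left out, and the lowest were 0.77, 1.40 and 0.54 in the same order.

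Nkg7 stood at higher CPM in EPAT than in vehicle tumours without overlap on day 2. Nkg7 had 82.5, 3.67, 60.4, 77.4 and 57.8 CPM in combination tumours and 36.7, 68.4, 51.2, 57.7 and 41.2 CPM in EPAT tumours. The Nkg7 values were 42.7, 24.3, 60.9 and 43.2 CPM in anti-PD-1 tumours and 27.4, 10.1, 28.3, 24.5 and 33.5 CPM in vehicle tumours. All 5 EPAT tumours and 4 of the 5 combination tumours lay above every vehicle tumour, and combination replicate 2 had the lowest level of all libraries. Nkg7 gave a log2 fold change over vehicle of 1.18 ± 0.48 for the combination, 1.04 ± 0.48 for EPAT and 0.79 ± 0.50 for anti-PD-1, with edgeR adjusted p of 0.361, 0.787 and 0.773. The death ligand gene was low throughout. Fasl had 5.74, 1.01, 3.61, 3.88 and 2.74 CPM in combination tumours and 1.35, 4.22, 2.48, 2.46 and 1.48 CPM in EPAT tumours. The Fasl values were 3.08, 2.56, 2.83 and 2.63 CPM in anti-PD-1 tumours and 0.377, 1.12, 2.25, 2.72 and 2.07 CPM in vehicle tumours. Vehicle replicate 1 was lowest and combination replicate 1 highest, and the groups overlapped. Fasl gave a log2 fold change over vehicle of 0.98 ± 0.51 for the combination, 0.49 ± 0.51 for EPAT and 0.69 ± 0.54 for anti-PD-1, with edgeR adjusted p of 0.527, 0.952 and 0.813.

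Ccl1 was the member with the fewest counts, 292 over all 39 libraries, and its receptor gene Ccr8 was at 0 in 37 of 39. Ccl1 had 0.749, 1.83, 0.072, 0.95 and 1.16 CPM in combination tumours and 0.09, 0.13, 0.483, 0.308 and 0.696 CPM in EPAT tumours. The Ccl1 values were 0.5, 1.13, 0.416 and 0.366 CPM in anti-PD-1 tumours and 0.603, 0, 0.161, 0.065 and 0.451 CPM in vehicle tumours. Unlike the other members, Ccl1 was highest in combination replicate 2, while replicate 3 of that group was at 0.07 CPM. Ccl1 gave a log2 fold change over vehicle of 1.81 ± 0.73 for the combination, 0.36 ± 0.77 for EPAT and 1.14 ± 0.78 for anti-PD-1, with edgeR adjusted p of 0.35, 0.985 and 0.781. Without vehicle replicate 1 the Ccl1 values were 2.39, 0.94 and 1.73 for the combination, EPAT and anti-PD-1. These were the highest with 1 library left out, and the lowest were 1.45, -0.035 and 0.68.

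The receptor gene Slamf7 had the smallest p of the 9 genes for the combination and for EPAT on day 2. Slamf7 had 84.8, 10.8, 74.9, 76.1 and 93.7 CPM in combination tumours and 78.9, 54.4, 49, 48.2 and 47.6 CPM in EPAT tumours. The Slamf7 values were 65.4, 58.7, 43.1 and 76.1 CPM in anti-PD-1 tumours and 23.4, 22.5, 17, 26.8 and 39 CPM in vehicle tumours. All EPAT and all anti-PD-1 tumours lay above every vehicle tumour, and so did 4 of the 5 combination tumours, with replicate 2 below them all at 10.8 CPM. Slamf7 gave a log2 fold change over vehicle of 1.40 ± 0.38 for the combination, 1.11 ± 0.37 for EPAT and 1.24 ± 0.39 for anti-PD-1, with edgeR adjusted p of 0.165, 0.697 and 0.524. Without combination replicate 2 the combination value was 1.69 and passed (edgeR adjusted p = 0.0403). That fit called 20 genes in all, against 0 with all libraries. Over all single libraries left out the Slamf7 value ranged from 1.26 to 1.69. Treated and vehicle tumours did not overlap for 2 members under EPAT (Nkg7 and Slamf7), where 1.27% of all genes were higher without overlap, and for 2 under anti-PD-1 (Prf1 and Slamf7), against 1.63%. For the combination no member qualified, against 1.94%, since replicate 2 lay within or below the vehicle range for 8 members and replicate 3 lay within it for Ccl1.

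Lymphocyte markers were measured beside these differences. The T cell score averaged 3.04 ± 1.64 log2 CPM in combination, 3.44 ± 0.26 in EPAT and 3.48 ± 0.29 in anti-PD-1 tumours, against 2.94 ± 0.69 in vehicle tumours (SD). The NK cell score averaged 3.40 ± 0.91 in combination, 3.51 ± 0.19 in EPAT and 3.52 ± 0.20 in anti-PD-1 tumours, against 2.81 ± 0.41 in vehicle tumours. With the T cell score as a covariate the median log2 fold change of the 9 genes for the combination was 0.96, with Slamf7 at 1.07, Gzmb at 1.31 and Nkg7 at 0.64. Within the libraries with lung transcripts (3 combination and 3 vehicle) all 9 genes were higher in the combination, with a median difference in mean log2 CPM of 1.92. Within those without (2 and 2, of which combination replicate 2 was 1) 4 of 9 were higher, with a median of -0.17. For EPAT all 9 were higher in both, by medians of 1.07 (4 against 3 libraries) and 0.85 (1 against 2). All 4 anti-PD-1 libraries carried lung transcripts, and against the 3 such vehicle libraries all 9 were higher, by a median of 1.30. Leaving out the 3 libraries with B cell or keratinocyte genes, an alternative chosen after seeing the data, gave medians of 1.30, 0.65 and 0.72 for the combination, EPAT and anti-PD-1, with all 9 genes above 0 in each. Without the 3 libraries whose title carries another group's number, the EPAT median was 1.08 with 8 of 9 genes above 0, Ccl1 being at -0.02.

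**Figure D2:**
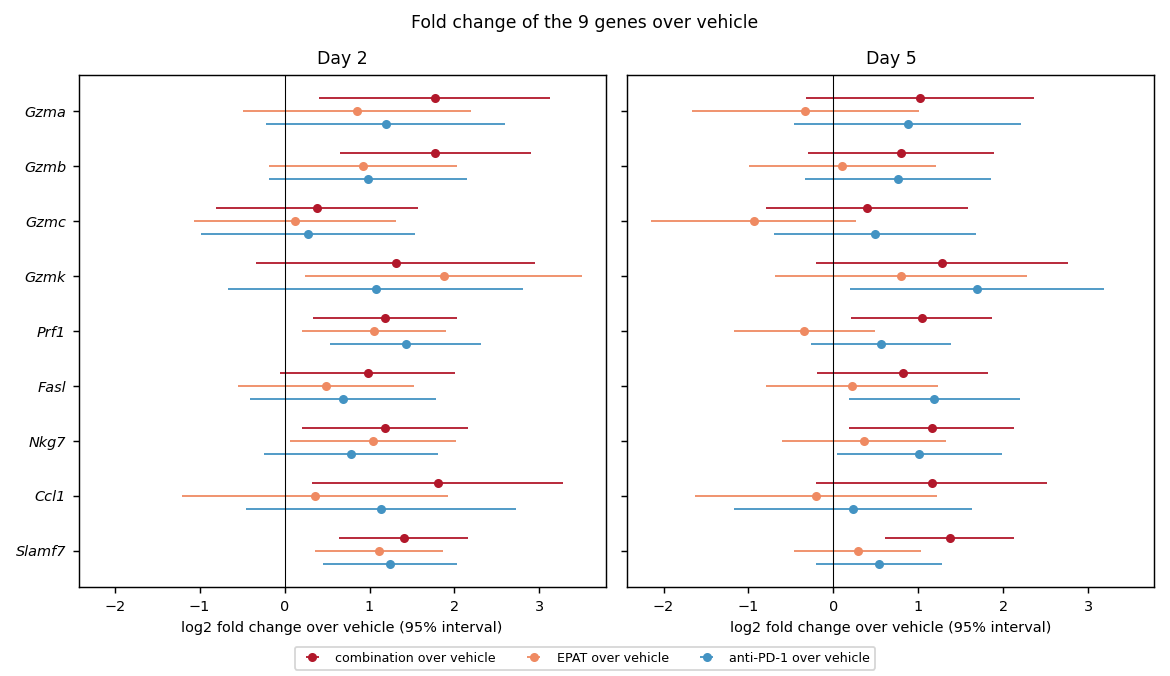
Fitted log2 fold change over vehicle (x axis) with its 95% interval for each gene (y axis), for the combination, EPAT and anti-PD-1 on day 2 (left) and day 5 (right). On day 2 every value lies above 0, while on day 5 the EPAT values spread from -0.94 to 0.80.

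After 5 days the fitted directions were not the same in the 3 comparisons. All 9 genes had a fold change above 0 in the combination (median 1.04) and under anti-PD-1 (median 0.76), while under EPAT alone 5 were above and 4 below 0 (median 0.11). Over all genes the medians were -0.01, 0.02 and -0.01. edgeR called none of the 9 genes in any of these 3 comparisons, which share their vehicle libraries. It called 4 of all genes for the combination (0.0265%), all lower, and 0 for EPAT and anti-PD-1. At an unadjusted p under 0.05 stood 3 members for the combination (Prf1, Nkg7 and Slamf7), where 16.5% of all genes did, 0 for EPAT against 1.7%, and 3 for anti-PD-1 (Gzmk, Fasl and Nkg7) against 7.15%. Without the 3 libraries with the other title number, 4 of the 9 genes were above 0 for EPAT (median -0.17, Slamf7 at 0.07 and Gzmb at -0.17), and all 9 were for anti-PD-1 (median 0.91) and the combination (median 1.06), with no member called. DESeq2 called Slamf7 for the combination (adjusted p = 0.0407), among 65 genes it called in all. Limma-voom and limma-trend called no member in these 3 comparisons. No member was higher without overlap, where 0.65% of all genes were for the combination, 0.212% for EPAT and 0.179% for anti-PD-1.

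Prf1 was highest in the combination on day 5. Prf1 had 17.7, 20.8, 13.1, 13.3 and 12.7 CPM in combination tumours and 7.31, 4.86, 6.07, 3.15 and 8.42 CPM in EPAT tumours. The Prf1 values were 10.4, 4.72, 16.2, 14.8 and 9.35 CPM in anti-PD-1 tumours and 4.27, 7.08, 16.1, 7.87 and 2.65 CPM in vehicle tumours. All 5 combination tumours lay above every EPAT tumour and above 4 of the 5 vehicle tumours, and vehicle replicate 3 lay within the combination range. Prf1 gave a log2 fold change over vehicle of 1.04 ± 0.41 for the combination, -0.34 ± 0.41 for EPAT and 0.56 ± 0.41 for anti-PD-1, with edgeR adjusted p of 0.227, 1.00 and 0.691. Leaving out vehicle replicate 3 gave 1.51 for the combination, and over all single libraries left out this value ranged from 0.82 to 1.51.

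Gzmb, Gzma and Gzmc were uneven within the treated groups of day 5. Gzmb had 8.49, 91, 57.2, 42.6 and 15.4 CPM in combination tumours and 45, 20.2, 21, 17.7 and 29.5 CPM in EPAT tumours. The Gzmb values were 62.8, 25.6, 64, 34.7 and 23 CPM in anti-PD-1 tumours and 11, 24, 39.6, 23.6 and 25.8 CPM in vehicle tumours. The lowest and the highest Gzmb level of that day were both in combination tumours. Gzmb gave a log2 fold change over vehicle of 0.80 ± 0.54 for the combination, 0.11 ± 0.54 for EPAT and 0.76 ± 0.54 for anti-PD-1, with edgeR adjusted p of 0.457, 1.00 and 0.688. Gzma had 35.6, 246, 76.6, 24.2 and 83.3 CPM in combination tumours and 51.4, 18.9, 15.3, 32.3 and 64.7 CPM in EPAT tumours. The Gzma values were 78.2, 24.8, 264, 12.7 and 41.3 CPM in anti-PD-1 tumours and 15.7, 22.9, 95.5, 43.4 and 52.6 CPM in vehicle tumours. Single tumours set the Gzma means, combination replicate 2 and anti-PD-1 replicate 3 being far above the rest of their groups. Gzma gave a log2 fold change over vehicle of 1.02 ± 0.66 for the combination, -0.33 ± 0.66 for EPAT and 0.87 ± 0.66 for anti-PD-1, with edgeR adjusted p of 0.438, 1.00 and 0.696. Without anti-PD-1 replicate 3 the anti-PD-1 value for Gzma was -0.23, and without combination replicate 2 the combination value was 0.26.

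The same 2 tumours were high in Gzmc. Gzmc had 67.1, 287, 53.5, 18.1 and 110.0 CPM in combination tumours and 60.6, 20.6, 16.4, 51.6 and 62.9 CPM in EPAT tumours. The Gzmc values were 114, 45.7, 312, 40.6 and 62.3 CPM in anti-PD-1 tumours and 22.8, 53, 132, 109 and 91 CPM in vehicle tumours. All 5 EPAT tumours lay below the vehicle mean, though within the vehicle range except for replicates 2 and 3. Gzmc gave a log2 fold change over vehicle of 0.39 ± 0.59 for the combination, -0.94 ± 0.59 for EPAT and 0.49 ± 0.59 for anti-PD-1, with edgeR adjusted p of 0.763, 1.00 and 0.811. The value for the combination was -0.40 without its replicate 2, and that for anti-PD-1 was -0.31 without its replicate 3. Gzmk told the tumours apart in another way. Gzmk had 2.37, 1.42, 9.44, 6.77 and 2.73 CPM in combination tumours and 5.09, 2.79, 2.11, 2.63 and 3.67 CPM in EPAT tumours. The Gzmk values were 4.88, 1.26, 4.18, 18.6 and 1.52 CPM in anti-PD-1 tumours and 0.586, 3.78, 3.35, 0.889 and 0.944 CPM in vehicle tumours. Anti-PD-1 replicate 4, among the lowest in Gzma, had the highest Gzmk of all libraries, and vehicle overlapped every treatment. Gzmk gave a log2 fold change over vehicle of 1.27 ± 0.73 for the combination, 0.80 ± 0.73 for EPAT and 1.69 ± 0.73 for anti-PD-1, with edgeR adjusted p of 0.376, 1.00 and 0.645. Without anti-PD-1 replicate 4 the anti-PD-1 value for Gzmk was 0.67. That tumour also had the highest T cell (5.37), macrophage (9.48) and skeletal muscle (9.97) scores of all libraries in log2 CPM, and their part in its Gzmk was not tested.

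Nkg7 and Fasl were highest in anti-PD-1 replicate 4 as well. Nkg7 had 77.8, 83.3, 141, 107 and 51.8 CPM in combination tumours and 70.3, 58.1, 24.3, 45.9 and 66 CPM in EPAT tumours. The Nkg7 values were 59.6, 28.1, 126, 167 and 35.7 CPM in anti-PD-1 tumours and 20.4, 45, 70.3, 42.2 and 29.2 CPM in vehicle tumours. Of the 5 combination tumours 4 lay above every vehicle tumour, while 2 anti-PD-1 tumours lay above the vehicle range and 3 within it. Nkg7 gave a log2 fold change over vehicle of 1.16 ± 0.48 for the combination, 0.36 ± 0.48 for EPAT and 1.01 ± 0.48 for anti-PD-1, with edgeR adjusted p of 0.241, 1.00 and 0.645. Fasl had 1.61, 6.89, 7.55, 4.64 and 2.34 CPM in combination tumours and 4.11, 2.88, 0.792, 3.34 and 3.98 CPM in EPAT tumours. The Fasl values were 4.54, 1.57, 6.72, 13.4 and 3.68 CPM in anti-PD-1 tumours and 1.09, 2.52, 3.92, 2.46 and 3.13 CPM in vehicle tumours. Treated and vehicle groups overlapped for Fasl, and EPAT replicate 3 was the lowest. Fasl gave a log2 fold change over vehicle of 0.82 ± 0.50 for the combination, 0.22 ± 0.50 for EPAT and 1.19 ± 0.50 for anti-PD-1, with edgeR adjusted p of 0.404, 1.00 and 0.645.

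Ccl1 stayed near the limit of counting. Ccl1 had 1.5, 0.923, 1.73, 0.63 and 1.27 CPM in combination tumours and 0.657, 0.36, 0, 0.578 and 0.624 CPM in EPAT tumours. The Ccl1 values were 0.514, 0.839, 1.12, 0.431 and 0.24 CPM in anti-PD-1 tumours and 0, 0.194, 0.862, 0.684 and 0.885 CPM in vehicle tumours. Vehicle replicate 1 and EPAT replicate 3 had no count. Of the 5 combination tumours 4 lay above every vehicle tumour and 4 above every EPAT tumour. Ccl1 gave a log2 fold change over vehicle of 1.16 ± 0.67 for the combination, -0.20 ± 0.70 for EPAT and 0.23 ± 0.69 for anti-PD-1, with edgeR adjusted p of 0.381, 1.00 and 0.931.

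Slamf7 again had the smallest p among the members for the combination on day 5. Slamf7 had 106, 139.6, 154, 132 and 67.1 CPM in combination tumours and 88.4, 50, 38.4, 40.3 and 65 CPM in EPAT tumours. The Slamf7 values were 50.9, 64.2, 83.1, 96.7 and 41.6 CPM in anti-PD-1 tumours and 26, 43.3, 96.9, 40.7 and 25.4 CPM in vehicle tumours. Of the 5 combination tumours 4 lay above every vehicle tumour, and vehicle replicate 3, at 96.9 CPM, stood far above the other vehicle tumours. Slamf7 gave a log2 fold change over vehicle of 1.37 ± 0.37 for the combination, 0.28 ± 0.37 for EPAT and 0.54 ± 0.37 for anti-PD-1, with edgeR adjusted p of 0.171, 1.00 and 0.682. Without vehicle replicate 3 the combination value was 1.82 and passed (edgeR adjusted p = 0.0301). That fit called 205 genes in all, against 4 with all libraries. Over all single libraries left out the Slamf7 value ranged from 1.21 to 1.82.

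None of the 16 tested T cell genes passed in any comparison with vehicle on day 5, and all 16 had a fold change above 0 in each, with medians of 1.01 for the combination, 0.34 for EPAT and 0.99 for anti-PD-1. The T cell score averaged 4.10 ± 0.64 in combination, 3.53 ± 0.68 in EPAT and 3.87 ± 1.13 in anti-PD-1 tumours, against 3.15 ± 0.48 log2 CPM in vehicle tumours (SD). The NK cell score averaged 3.57 ± 0.61 in combination, 3.13 ± 0.20 in EPAT and 3.31 ± 0.42 in anti-PD-1 tumours, against 3.15 ± 0.39 in vehicle tumours. With the T cell score as a covariate the median log2 fold change of the 9 genes was 0.24 for the combination, -0.15 for EPAT and 0.21 for anti-PD-1. For the combination, Slamf7 stood at 0.90, Prf1 at 0.66 and Ccl1 at 1.14 in that fit, Nkg7 at 0.24 and Gzmk at -0.01. Within libraries with lung transcripts all 9 genes were higher in the combination (2 against 3 libraries, median 1.68), and within those without 6 of 9 were (3 against 2, median 0.38). For anti-PD-1 it was 9 of 9 (2 against 3, median 1.099) and 5 of 9 (3 against 2, median 0.08), and for EPAT 4 of 9 (2 against 3, median -0.03) and 5 of 9 (3 against 2, median 0.03). Vehicle replicate 3, which lacked lung transcripts, had the highest level of its group in 7 of the 9 genes (all but Gzmk and Ccl1).

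**Figure D3:**
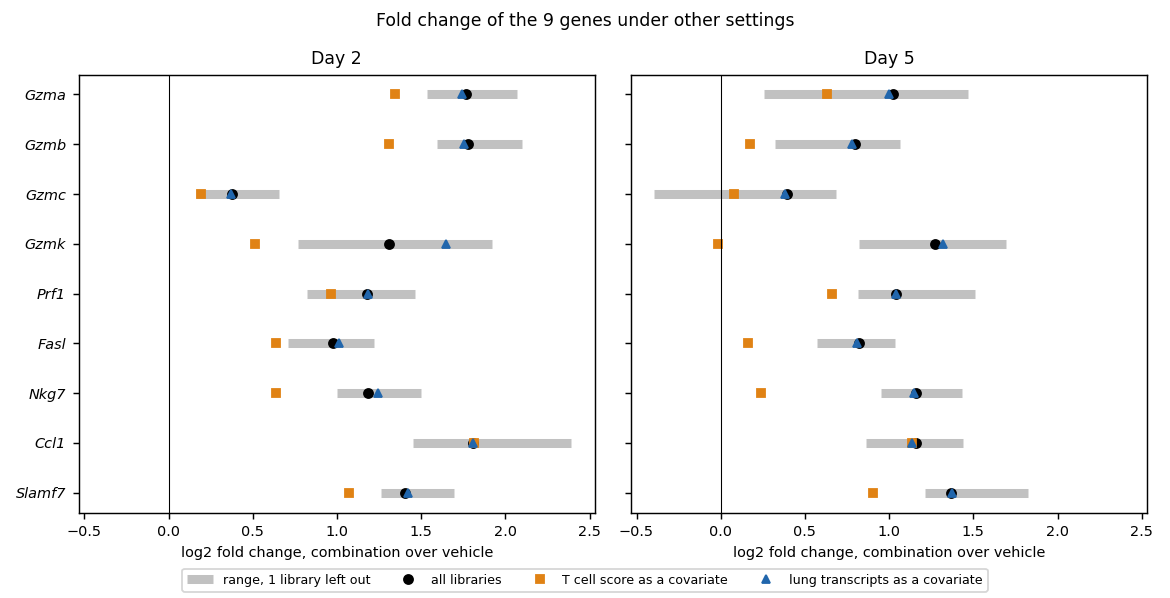
Log2 fold change of the combination over vehicle (x axis) for each gene (y axis) on day 2 (left) and day 5 (right), from all libraries (black), with 1 library left out at a time (grey range), and with the T cell score (orange) or lung transcripts (blue) as a covariate. With the T cell score the day 5 values lie lower than with all libraries for every gene, Gzmk reaching -0.01, and the grey range of Gzmc on day 5 crosses 0.

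Set against the single treatments, the combination had its highest median difference over EPAT alone on day 5. All 9 genes were higher in combination than in EPAT tumours, with a median of 1.08 and a range from 0.48 (Gzmk) to 1.38 (Prf1). Prf1 averaged 15.5 ± 3.61 CPM in combination tumours and 5.96 ± 2.06 CPM in EPAT tumours (SD, n = 5 each), a log2 difference of 1.38 ± 0.41 (edgeR adjusted p = 0.282). Slamf7 averaged 119.6 ± 34.3 CPM in combination and 56.4 ± 20.7 CPM in EPAT tumours (1.08 ± 0.37, adjusted p = 0.288), and Gzmc 107 ± 106 CPM in combination and 42.4 ± 22.3 CPM in EPAT tumours (1.33 ± 0.60, adjusted p = 0.359). The Gzmc value was 0.55 without combination replicate 2, at 287 CPM. These 3 genes had an unadjusted p under 0.05, as did 12.7% of all genes, and edgeR called 0% of all genes here. Prf1 was the 1 member of 9 whose combination tumours all lay above every EPAT tumour, as 0.929% of all genes did. All 9 genes were also above 0 without the 3 libraries with the other title number (median 1.32), with Prf1 at 1.49, Slamf7 at 1.32 and Gzmc at 1.51, and no member passed. Against anti-PD-1 on day 5, 6 of 9 were higher in the combination (median 0.14), and only Slamf7 had an unadjusted p under 0.05 (0.83 ± 0.37, adjusted p = 0.753), where 6.31% of all genes did and 0.0199% were called. There, 3 of 9 were higher without the 3 libraries with the other title number (median -0.02) and Slamf7 stood at 0.72, with no member at an unadjusted p under 0.05. On day 2, 8 of 9 were higher against EPAT (median 0.29). Ccl1 alone had an unadjusted p under 0.05 there (1.45 ± 0.70, edgeR adjusted p = 0.673), against 7.36% of all genes. Without the 3 libraries with the other title number 8 of 9 were higher as well (median 0.30), with Ccl1 at 1.83. Against anti-PD-1 on day 2, 8 of 9 were higher (median 0.29) and none had an unadjusted p under 0.05, against 4.35% of all genes. For Gzmb that last difference was 0.79 ± 0.58 with a 95% interval of -0.38 to 1.97.

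The 4 treatments of a day form a 2 by 2 design, in which the antibody can be averaged over tumours with and without EPAT. On day 5 all 9 genes were higher in the anti-PD-1 arms than in the arms without it, from 0.73 (Gzmb) to 1.11 (Gzma), with a median of 0.90. Prf1 was at 0.97 ± 0.29 (edgeR adjusted p = 0.147), Slamf7 at 0.81 ± 0.26 (0.156) and Nkg7 at 0.90 ± 0.34 (0.18). Here 7 of the 9 members (all but Gzmb and Ccl1) had an unadjusted p under 0.05, where 18.9% of all genes did, and 0 passed. Without the 3 libraries with the other title number all 9 were above 0 on day 5 (median 1.05) and on day 2 (median 0.75). No gene passed in those 2 fits. Without vehicle day 5 replicate 3, Prf1 (1.21) and Slamf7 (1.04) passed with an edgeR adjusted p of 0.0367 each. That fit called 231 genes in all, against 0 with all libraries. On day 2 all 9 were above 0 as well (median 0.77), and 0 passed. There 5 members had an unadjusted p under 0.05 (Gzma, Gzmb, Prf1, Ccl1 and Slamf7), against 7.17%. For these arms limma-voom called Slamf7 (adjusted p = 0.0354), among 192 genes it called in all.

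Averaged over tumours with and without the antibody, EPAT went with higher values of all 9 genes on day 2 (median 0.64) and of 6 of 9 on day 5 (median 0.07). On day 2 Gzmb (0.86 ± 0.40), Nkg7 (0.72 ± 0.35) and Slamf7 (0.64 ± 0.27) had an unadjusted p under 0.05, against 3.46% of all genes, each with an edgeR adjusted p of 0.998. On day 5 Slamf7 alone did (0.56 ± 0.26, adjusted p = 0.999), against 4.15%, with 0.0133% of all genes called. Without the 3 libraries with the other title number the day 2 median was 0.67, with all 9 above 0. The day 5 median was then -0.03, with 4 of 9 above 0 and Slamf7 at 0.39. The interaction, the combination's departure from the sum of both single effects, was below 0 for 8 of 9 genes on day 2 (median -0.28) and for 4 of 9 on day 5 (median 0.47). Without those 3 libraries it was above 0 for 2 of 9 on day 2 (median -0.37) and for 6 of 9 on day 5 (median 0.47). No member passed. Prf1 on day 2, at -1.30 ± 0.59 (adjusted p = 0.648), was the member with an unadjusted p under 0.05, as 7.28% of all genes had, and on day 5 there was none against 3.1%.

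Between the days, Gzmk had the highest log2 fold change of the members in each of the 4 treatments. It averaged 4.55 ± 3.42 CPM on day 5 and 1.42 ± 1.16 CPM on day 2 in combination tumours, 6.08 ± 7.15 and 1.21 ± 0.812 CPM in anti-PD-1 tumours and 1.91 ± 1.52 and 0.559 ± 0.576 CPM in vehicle tumours. The log2 difference of Gzmk, day 5 over day 2, was 1.66 ± 0.74 in the combination, 0.62 ± 0.72 under EPAT, 2.31 ± 0.82 under anti-PD-1 and 1.70 ± 0.81 in vehicle, with edgeR adjusted p of 0.383, 0.916, 0.679 and 0.903. Without anti-PD-1 day 5 replicate 4 the anti-PD-1 value was 1.28, and without vehicle day 2 replicate 3 the vehicle value was 2.31. Over all single libraries left out the anti-PD-1 value ranged from 1.28 to 2.84 and the vehicle value from 1.29 to 2.31. None of the 9 genes passed between days in any group. All 9 were above 0 in vehicle (median 0.74), with Gzmk, Prf1 (0.93 ± 0.42) and Slamf7 (0.85 ± 0.37) at an unadjusted p under 0.05, against 5.49% of all genes. All 9 were above 0 under anti-PD-1 (median 0.30; Gzmk and Fasl, 6.98%), 7 in the combination (median 0.45; Gzmk and Slamf7, 11.7%, with 0.0133% of all genes called) and 5 under EPAT (median 0.02; no member, 7.23%). Under EPAT 3 of 9 were above 0 without the 3 libraries with the other title number (median -0.26). Gzmk then stood at 0.18, below Ccl1 at 0.67. Under anti-PD-1 all 9 stayed above 0 without them (median 0.44), with Gzmk at 2.54. Lower on day 5 in the combination were Gzma and Gzmb, at -0.34 ± 0.65 and -0.46 ± 0.54.

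The 9 genes did not vary as one across tumours. After each group mean was removed from log2 CPM, Gzma correlated with Gzmc (r = 0.87 over 39 libraries) and Nkg7 with Gzmk (0.80), while Gzma with Gzmk was at 0.21 and Gzmc with Gzmk at 0.16. Prf1 and Slamf7 were at 0.79, as were Nkg7 and Slamf7. Ccl1 had r of at most 0.32 with any other member. All points share library scaling and tumour content. The values include combination day 2 replicate 2, which was low in most of these genes, and were not recomputed without it.

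A CD8 T cell gene and an NK cell gene were then set beside each member in 18 relations, with permutation p-values from 100000 permutations within groups and Benjamini-Hochberg adjustment over the 18. With Cd8a, Nkg7 had r = 0.94 (rho = 0.91, adjusted permutation p = 6e-05 for both), Slamf7 0.77 (rho = 0.60, p = 0.00297 and 0.00468), Gzmk 0.74 (rho = 0.65, p = 0.000495 and 0.00112) and Gzmb 0.72 (rho = 0.58, p = 0.00974 and 0.00538). Gzma had 0.41 with Cd8a (rho = 0.27, adjusted permutation p = 0.111 and 0.173) and Gzmc 0.40 (rho = 0.32, p = 0.0662 and 0.0856). The relation of Gzma rested on combination day 2 replicates 1 and 2, since without them r was 0.12, while Nkg7 kept 0.90, Gzmk 0.59, Slamf7 0.54 and Gzmb 0.46. Without those libraries Prf1 had 0.49, Fasl 0.54, Gzmc 0.23 and Ccl1 0.32. With Ncr1, an NK cell receptor gene, Gzma and Gzmc each had r = 0.79 (rho = 0.76 and 0.77, adjusted permutation p = 6e-05 for all). Nkg7 was at 0.48 (rho = 0.42, p = 0.00954 and 0.0286) and Gzmk at 0.22 (rho = 0.19, p = 0.217 and 0.306). Without the 2 libraries farthest from the median of Ncr1 the values were 0.79 for Gzma, 0.76 for Gzmc, 0.41 for Nkg7, 0.17 for Gzmk, 0.64 for Gzmb, 0.43 for Prf1, 0.47 for Fasl, 0.42 for Slamf7 and -0.07 for Ccl1. Those libraries were EPAT day 5 replicate 3 and vehicle day 5 replicate 1, so combination day 2 replicate 2 stayed in. Prf1 had r = 0.65 with Cd8a (rho = 0.49, adjusted permutation p = 0.00954 and 0.00962) and 0.40 with Ncr1 (rho = 0.39, p = 0.0357 and 0.0348). Fasl had 0.59 with Cd8a (rho = 0.61, adjusted permutation p = 0.00102 and 0.00115) and 0.58 with Ncr1 (rho = 0.47, p = 0.00297 and 0.0132). With Ncr1, Gzmb had 0.62 (rho = 0.56, adjusted permutation p = 0.00054 and 0.00135) and Slamf7 0.46 (rho = 0.39, p = 0.0146 and 0.0348). Ccl1 had 0.05 with Cd8a (rho = 0.20, adjusted permutation p = 0.756 and 0.240) and 0.27 with Ncr1 (rho = 0.08, p = 0.156 and 0.643). The smallest unadjusted p these permutations can give is 1e-05, reached by Nkg7 with Cd8a and by Gzma and Gzmc with Ncr1. The order of the members differed between NK cell genes. Klre1 had r of 0.375 with Gzma, 0.299 with Gzmc, 0.614 with Gzmk, 0.702 with Nkg7 and 0.786 with Gzmb. Klrb1c had 0.834, 0.781, 0.432, 0.624 and 0.637 with the same genes in that order. Klre1 and Klrb1c were outside the 18 relations and have no p-value here. Differences between 2 such correlations were not tested.

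**Figure D4:**
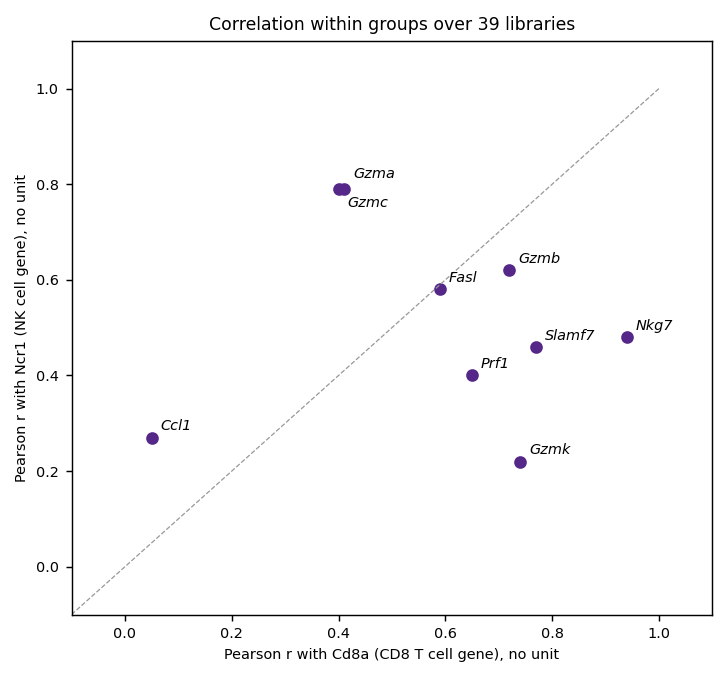
Pearson r of each gene with Cd8a (x axis) and with Ncr1 (y axis) over 39 libraries after removal of group means, both without unit, and the dashed line marks equal values. Gzma and Gzmc lie above the line at 0.79 with Ncr1, Nkg7 and Gzmk lie below it at 0.94 and 0.74 with Cd8a, and Ccl1 lies apart near the origin. Not drawn is Klre1, another NK cell gene, with r of 0.375 for Gzma, 0.299 for Gzmc, 0.702 for Nkg7 and 0.614 for Gzmk.

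Among all other tested genes, the 3 most like each member by the same residual r over 39 libraries were taken as a description. Combination day 2 replicate 2 is among the 39. For Gzmc they were the granzyme genes Gzmd (0.94), Gzme (0.94) and Gzmg (0.90), and for Gzma they were Gzme (0.85), the NK receptor gene Klrb1c (0.83) and Il2ra (0.83), the gene of an interleukin-2 receptor chain. For Nkg7 they were the T cell receptor complex gene Cd3d (0.95), Cd8a (0.94) and the transcription factor gene Tbx21 (0.94). Gzmk was nearest to Pdcd1 (0.83), which encodes PD-1, to Cd3g (0.82) and to Il12rb2 (0.81). Gzmb was nearest to the receptor gene Klrd1 (0.88), the chemokine gene Ccl4 (0.87) and AW112010 (0.86), and Slamf7 to Slc15a3 (0.91), Ccl4 (0.87) and the phosphatase gene Ptpn6 (0.87). For Prf1, Cyfip2 (0.80) and Serpinb9 (0.78), the gene of a granzyme B inhibitor, are given. Fasl was nearest to Tmem51os1 (0.86), Ms4a6c (0.85) and the receptor gene Klrc1 (0.84), and Ccl1 to Dnase1l2 (0.75), Chst7 (0.71) and Entpd3 (0.68).

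Other genes of the killing pathway had lower medians than the members in the combination against vehicle, and none of them passed on either day, so each value named here fell short of the threshold. Over all genes, 46.7% on day 2 and 49.0% on day 5 were higher in the combination. Of 12 genes of granule loading and release, 11 were higher on day 2 (median 0.65) and 10 on day 5 (0.43). The 2 with the smallest p on day 2 were Vamp8, a membrane fusion gene (0.74 ± 0.20, edgeR adjusted p = 0.170), and Srgn, the granule proteoglycan gene (0.93 ± 0.37, 0.348). On day 5 they were Lyst, a granule trafficking gene (0.75 ± 0.28, 0.213), and the cathepsin gene Ctsw (1.19 ± 0.47, 0.229). Of 5 other tested granzyme genes, 4 were higher on day 2 (median 0.20) and 5 on day 5 (0.45), with Gzmm at 0.64 ± 0.51 and 0.69 ± 0.51. All 5 genes of a serpin list drawn up for granzyme inhibitors were higher on day 2 (median 0.74), and 3 of 5 on day 5 (median 0.39). On day 2 Serpina3g was at 1.54 ± 0.51 (edgeR adjusted p = 0.240), and whether it inhibits granzymes was not tested. Serpinb9, the granzyme B inhibitor gene, was at 0.52 ± 0.29 (0.556).

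On the death receptor route 4 of 8 genes were higher on day 2 (median -0.05) and 6 of 8 on day 5 (0.47). Fas, the receptor for Fasl, was at 0.77 ± 0.38 on day 2 (edgeR adjusted p = 0.486) and Tnf at 0.93 ± 0.37 (0.347). On day 5 the death receptor gene Tnfrsf10b was at -0.62 ± 0.25 and its ligand gene Tnfsf10 at 0.97 ± 0.41, with adjusted p of 0.234 and 0.244. The 4 tested chemokine genes beside Ccl1 were higher on both days (medians 1.25 and 0.93), among them Ccl4 at 1.26 ± 0.37 (0.207) and Ccl3 at 1.38 ± 0.45 (0.229) on day 2, and Ccl5 at 1.06 ± 0.43 (0.236) on day 5. All 6 transcription factor genes of effector lymphocytes were higher on both days (medians 0.53 and 0.66), with Tbx21 at 1.47 ± 0.52 (0.270) on day 2 and Zeb2 at 0.73 ± 0.21 (0.171) on day 5. All 5 tested effector cytokine genes were higher on both days (medians 0.67 and 0.47), with Ifng, the interferon-γ gene, at 1.67 ± 0.65 (0.333) on day 2. The 16 tested T cell genes were all higher on both days (medians 0.40 and 1.01), and 10 of 11 NK cell genes (0.69 and 0.72). The NK cell genes with the smallest p on day 5 were Klrk1 (1.01 ± 0.40, edgeR adjusted p = 0.228) and Klra4, which was lower (-0.78 ± 0.34, 0.257). Genes of the 7-member macrophage list were all higher on both days too (medians 0.69 and 0.59). Genes of other tissues differed in their medians too, with none called. On day 2 all 10 skeletal muscle genes were higher than in vehicle, with medians of 1.39 for the combination, 2.98 for EPAT and 3.38 for anti-PD-1. All 4 tested B and plasma cell genes were lower (-4.02, -4.07 and -3.31 in the same order), as were all 4 keratinocyte genes (-5.45, -4.31 and -4.32) and all 6 adipocyte genes (-2.62, -1.90 and -0.92). On day 5 the muscle medians were -0.16, -0.64 and 1.53, the B and plasma cell medians -0.15, -0.78 and 0.34, the keratinocyte medians 4.64, -0.38 and 0.23 and the adipocyte medians -1.67, -3.29 and -0.45. The keratinocyte score of day 5 was 4.29 log2 CPM in combination replicate 3 and at most -1.83 in the other combination tumours. Single tumours also set the vehicle side of day 2. The B and plasma cell score was 5.64 log2 CPM in vehicle replicate 1 and at most -0.11 in the other vehicle tumours of that day. The keratinocyte score was 4.97 in vehicle replicate 2 and at most 1.85 in the others, and the adipocyte score was highest in replicate 1, at 6.36. The part of these other tissues in the members' values was not tested.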

How the data were processed

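Whole-tumour RNA was profiled with QuantSeq forward 3′ libraries made from total RNA, per the labels' protocols. The authors deposited whole-number counts per Ensembl gene and, for 16095 genes, log2 CPM. Per the submitters' processing notes, bcl2fastq, STAR, featureCounts and limma were used with builds mm10 and GRCm38. The sources used here state neither versions nor whether counting used the strand. Symbols and positions came from GENCODE on GRCm38 (37693 identifiers matched), promoters from RefSeq, where all 9 members matched.

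Counts were tested with edgeR 4.0.16 in R 4.3.3: filterByExpr (minimum count 10, minimum total 15), TMM scaling, and a robust quasi-likelihood fit of 8 group means to 39 libraries (31 residual degrees of freedom, common biological coefficient of variation 0.323). There were 20 comparisons. Adjusted p-values are 2-sided, by Benjamini-Hochberg over 15070 genes, with a threshold of 0.05. The SE is the log2 fold change over the square root of F. Alternatives were DESeq2 1.42.0, its size factors, no filter, limma 3.58.1 (trend on the deposited log2 CPM, and voom with quality weights), only the groups compared, lung transcripts or T cell score as a covariate, and leaving out each library. Log2 CPM for scores and correlations used a prior count of 0.5. The scripts were tested on simulated data. The members and gene lists were chosen with earlier results of these data known. All members are named; of other lists, genes were named by the 2 smallest p per comparison, and the 3 nearest genes by r, of which 1 is not reported here. Replicates are numbered in accession order and pair nothing.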

Additional observations from a re-analysis of the deposited data

Results flagged for a closer look

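In 72 sets of a gene and a group, 10 held a library separated from the rest of its group by more than Dixon's 95% critical value on log2 CPM, where chance gives about 1 in 20. Of these, 6 were combination day 2 replicate 2, which was low in Gzma (13.7 CPM, against 129.96 to 157 in the other 4 tumours), Gzmb (3.12 against 61.5 to 87.6), Gzmc (18.1 against 76.0 to 129.5), Gzmk (0 against 1.16 to 3.24), Nkg7 (3.67 against 57.8 to 82.5) and Slamf7 (10.8 against 74.9 to 93.7). Its T cell and NK cell scores were also the lowest of the 39 libraries, at 0.22 and 1.80 log2 CPM, and their part in these values was not tested. EPAT day 5 replicate 3 was low in Fasl (0.792 CPM against 2.88 to 4.11) and in Ccl1 (0 against 0.360 to 0.657). Vehicle day 2 replicate 2 was low in Nkg7 (10.1 CPM against 24.5 to 33.5). EPAT day 2 replicate 1 was high in Slamf7 (78.9 CPM against 47.6 to 54.4).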

How the results depend on the processing

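No member passed in any of the 20 comparisons with edgeR. DESeq2 called 1 member for the combination against vehicle on day 2 and 1 on day 5, among 85 and 65 genes called in all. Limma-voom called 3 for the combination on day 2, among 567 genes, and 1 for the anti-PD-1 arms on day 2, among 192. Leaving out single libraries gave 0 to 1 called members for the combination against vehicle on either day and 0 to 2 for the anti-PD-1 arms on day 5. The fits that called a member there called 20 genes in all on day 2, 205 on day 5 and 231 for the arms. The other alternatives, the 2 added after seeing the data included, called 0 members in every comparison in which they could be fitted; with only the groups compared, Ccl1 fell below the filter in 5 of the 6 comparisons with vehicle. Of 834 gene values under alternatives other than single left-out libraries, over 84 of the 180 results of a gene and a comparison, 13 changed sign. With the T cell score as a covariate these were Gzmb (-0.151), Fasl (-0.095) and Nkg7 (-0.005) for EPAT on day 5, Gzmc for anti-PD-1 (-0.029) and EPAT (-0.153) on day 2, and Gzmk for the combination (-0.015) and the anti-PD-1 arms (-0.025) on day 5. With limma-voom they were Gzma (0.10) and Ccl1 (0.47) for EPAT on day 5 and Gzmc for anti-PD-1 on day 2 (-0.21), and with limma-trend Ccl1 for EPAT on day 5 (0.066). Without the 3 libraries whose title carries another group's number they were Gzmb for EPAT on day 5 (-0.165) and Ccl1 for EPAT on day 2 (-0.016). The cause was not tested. The 84 hold every member in the 6 comparisons with vehicle. From the other comparisons they hold the members with an edgeR unadjusted p under 0.05, and Gzmk between days under EPAT. Values picked by a small p are less prone to change sign, so these counts do not stand for all 180 results. Sign changes in the results outside the 84 are not in this count. Among them, without those 3 libraries, are Gzma (-0.007, from 0.145), Gzmb (-0.11, from 0.034) and Nkg7 (-0.025, from 0.146). These 3 values are for the combination against anti-PD-1 on day 5. Of 990 values with 1 library left out, which also cover 84 results, 16 changed sign, over 11 results. For EPAT on day 5 the ranges were -0.638 to 0.119 for Gzma, -0.166 to 0.337 for Gzmb, -0.564 to 0.128 for Prf1 and -0.516 to 0.081 for Ccl1, and for EPAT on day 2 -0.138 to 0.316 for Gzmc and -0.035 to 0.944 for Ccl1. For anti-PD-1 they were -0.234 to 0.506 for Gzmc on day 2, and on day 5 -0.230 to 1.322 for Gzma, -0.314 to 0.736 for Gzmc and -0.100 to 0.513 for Ccl1. For the combination on day 5 the range was -0.395 to 0.685 for Gzmc. No paired analysis was possible because replicate numbers follow accession order and the labels tie no tumours across groups. Counts of Ccl1 and Gzmk (at most 21 and 215 per library) limit what can be seen of them.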

Other observations

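The granzyme genes of the Gzmc neighbourhood that are not among the 9 spread widely between tumours. Gzmf had 28 to 10654 counts and Gzmg 25 to 7701 over the 39 libraries. On day 5 Gzmf averaged 216 ± 215 CPM in combination, 86.7 ± 63.1 in EPAT and 246 ± 308 in anti-PD-1 tumours, against 149 ± 116 CPM in vehicle tumours (SD, n = 5 each), and on day 2 the group means of Gzmf lay between 45.2 and 66.9 CPM. The highest single value, 795 CPM, was in an anti-PD-1 day 5 tumour. Of the 50-base words in the last 300 bases, 25.1% for Gzmg, 12.7% for Gzmf, 11.6% for Gzme and 9.96% for Gzmd also occur in transcripts of another granzyme gene, so their separate counts are uncertain.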
